A study of Homo sapiens with 8 samples.

Results

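The genes described are those of mechanistic target of rapamycin complex 1 (mTORC1) and its closest regulators, 10 of the 58302 gene identifiers in a table of RNA sequencing counts. They were taken from the table by symbol. MTOR encodes the kinase, and RPTOR and MLST8 encode subunits that bind it. AKT1S1 (also called PRAS40) and DEPTOR encode inhibitors bound in the complex. TSC1, TSC2 and RHEB form the switch that activates the kinase, and RPS6KB1 and RPS6KB2 encode the S6 kinases it phosphorylates. The cells were DLD1, a human colorectal cancer line, which stably carried lentiviral constructs for wild-type TRMT6 and TRMT61A (OE-WT) or an empty lentiviral vector (CTRL), with 2 libraries per group. TRMT6/61A is the enzyme pair that places m1A, a methyl mark on adenosine, in tRNAs. The deposited design text can be read as separate overexpression of each gene, whereas the sample titles name both together. In both groups the cells were washed in a buffer with cycloheximide, which arrests ribosomes, and RNA was taken from the cleared lysate. The RNA was enriched for poly(A) tails according to the labels. The libraries of a group were cultured in duplicate, and since nothing else separates them, p-values measure only the spread between these libraries, which may be technical.

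mTORC1 is a protein kinase complex that promotes protein synthesis and cell growth and restrains autophagy. Amino acids bring it to the lysosome through the Rag GTPases, and growth factors relieve the block that the TSC complex places on RHEB, the small GTPase that switches the kinase on. The pathway is known for its high activity in many colorectal tumours and for its part in the secretions of senescent cells. Its activity is set largely by phosphorylation and by location in the cell, neither of which RNA counts measure. The study followed mTOR signalling in these cells, and the question for these data was whether the transcripts of the complex differed between OE-WT and CTRL cells.

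The study also examined tRNA-Asp-GTC and tRNA-Glu-CTC, which read the codons GAC and GAG. The coding sequences of the genes carried these codons in unequal amounts. They made up 14.1% of the 256 codons of AKT1S1, a share above that of 98.4% of the protein-coding genes tested, and 2.72% of the 184 codons of RHEB, a share above that of 4.94%. MTOR, with 6.98% of 2549 codons, lay near the median gene at 6.43%, and the other 7 genes ranged from 6.48% in RPS6KB1 to 9.75% in RPS6KB2. These are features of the sequence, and translation was not analysed here. As an illustration, the 60 codons richest in GAC and GAG are printed for MTOR and for RHEB, the gene with the lowest share. They run 5′ to 3′ on the coding strand, from GENCODE release 44 transcripts on GRCh38. Capitals mark GAC and GAG codons in frame. The stretch covers codons 1426 to 1485 of MTOR with 12 such codons and codons 112 to 171 of RHEB with 3. MTOR, with 2549 codons, offers more stretches to choose from than RHEB, with 184. The 12 and 3 therefore do not compare the whole genes.
MTOR: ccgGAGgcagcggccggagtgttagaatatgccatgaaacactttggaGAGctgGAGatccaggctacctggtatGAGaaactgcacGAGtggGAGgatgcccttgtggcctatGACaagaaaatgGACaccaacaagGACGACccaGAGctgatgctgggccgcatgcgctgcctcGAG
RHEB: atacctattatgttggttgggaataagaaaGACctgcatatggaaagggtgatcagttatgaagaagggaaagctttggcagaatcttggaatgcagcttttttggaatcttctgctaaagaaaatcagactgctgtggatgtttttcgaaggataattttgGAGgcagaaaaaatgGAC

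The 250 bases upstream of the annotated start of MTOR are shown. MTOR was 1 of the 2 genes called higher in OE-WT cells, a call lost under some other settings. The bases come from RefSeq on GRCh38.p14 at chr1:11262552-11262801, minus strand, and are printed 5′ to 3′ towards the gene. Capitals mark CCAAT, the letters that the factor NF-Y is known to bind, here on the opposite strand as ATTGG.
MTOR upstream: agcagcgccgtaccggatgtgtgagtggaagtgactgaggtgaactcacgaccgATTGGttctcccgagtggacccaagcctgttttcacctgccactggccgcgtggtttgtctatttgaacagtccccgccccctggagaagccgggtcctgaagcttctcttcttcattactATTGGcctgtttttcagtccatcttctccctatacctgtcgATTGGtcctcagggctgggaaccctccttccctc
The motif began 196, 75 and 34 bases before the start. The letters of 3 motifs, chosen after the sequence was seen, were searched on both strands. None of these contains another. GGGCGG is the GC box of SP1, and CACGTG is the E-box of TFEB and MYC. CCAAT was in 32.0% of the 35116 RefSeq windows of this length, GGGCGG in 42.6% and CACGTG in 6.34%. RefSeq had windows for 7 of the 10 genes, 8 windows in all, and none for AKT1S1, the other gene called higher. CCAAT was found in 2 of the 8 (MTOR and RHEB), GGGCGG in 5 (MTOR, RHEB, TSC1 and both windows of TSC2) and CACGTG in 1 (TSC2). A match is a description of letters and not a measured site.

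The depth was 10460284 and 10327498 counts in OE-WT replicates 1 and 2 and 12379671 and 12063433 in CTRL replicates 1 and 2. Values are given as CPM, which are counts divided by the library size after TMM scaling, the usual correction for a few genes that take up many reads. A count of 0 would allow up to 3 counts, or 0.233 to 0.302 CPM by library, for counting error only, and none of the genes was at 0. TRMT6 had 210.7 and 180.9 CPM in OE-WT libraries and 52.6 and 55.4 in CTRL libraries, and TRMT61A had 137.5 and 130.4 against 58.9 and 56.8, so both labelled genes were higher in both OE-WT libraries. ARG2, the arginase whose product the study followed, had 32.9 and 32.4 CPM against 37.9 and 35.9 (log2 fold change -0.18, adjusted p = 0.177 with the quasi-likelihood test of edgeR, which gave the adjusted p-values below unless another tool is named). Of 10 colon epithelial markers, 9 had counts in every library, while the summed level of fibroblast, leukocyte and endothelial markers stayed between 0.786 and 4.98 CPM, with COL1A2, COL3A1, DCN, PDGFRA, CD3E, CDH5 and KDR at 0. All 10 mTORC1 genes passed the filter on low counts, among 14133 genes tested. In bulk RNA, fewer cells that express a gene and less RNA per cell cannot be told apart.

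At an adjusted p below 0.05, 2 of the 10 genes had higher levels in OE-WT cells, MTOR and AKT1S1, each by less than 1.5-fold. No gene was lower by edgeR's quasi-likelihood test, 0 were lower at an unadjusted p below 0.05 and 0 by DESeq2. Higher and lower calls made up 9.44% and 11.6% of the whole table tested, so a count of 2 among 10 genes is read as a result about these 2 genes and not about the group. The thresholds of the study, an unadjusted p below 0.05 with an absolute log2 fold change above 1, were passed by 0 of the 10 genes with edgeR, where 2 had an unadjusted p below 0.05, and by 0 with DESeq2, beside 3.15% of all genes tested. In CPM, both OE-WT libraries lay above both CTRL libraries for 6 genes (MTOR, MLST8, AKT1S1, RHEB, RPS6KB1 and RPS6KB2), against 29.9% of all genes, and below them for DEPTOR, against 30.2%. The groups overlapped for RPTOR, TSC1 and TSC2. The median log2 fold change of the 10 genes was 0.09, that of all genes 0.01, and the values ran from -0.61 (DEPTOR) to 0.45 (RPS6KB1). The median of the 10 was 0.0016 with library size only and 0.23 after a GC trend, described further on, was removed. The 95% interval left out a 1.5-fold change in either direction for 8 genes, and a 2-fold change for 9.

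**Figure D1:**
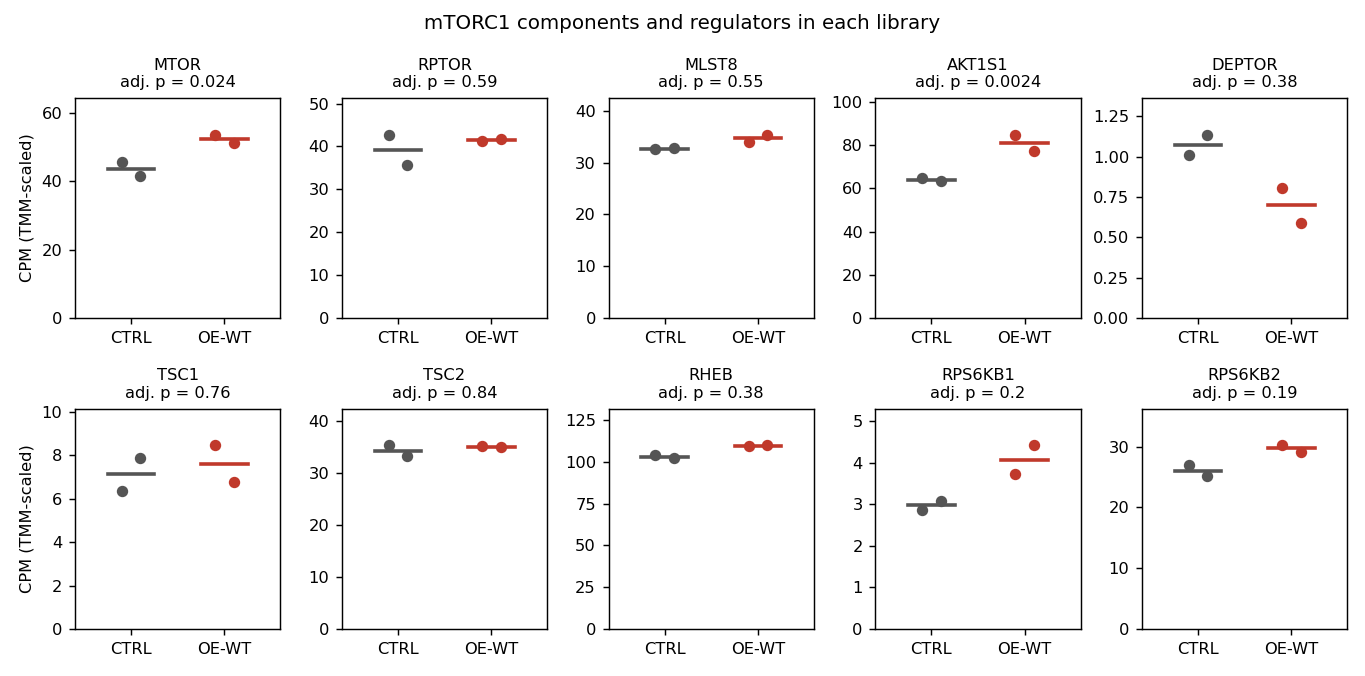
Level of each mTORC1 gene in CPM (vertical axes from 0, a separate scale per gene) in the 2 CTRL and 2 OE-WT libraries. Points are libraries, bars are group means, and the adjusted p is from edgeR's quasi-likelihood test. The OE-WT points of MTOR and AKT1S1 lie above the CTRL points, and those of RPTOR, TSC1 and TSC2 overlap.

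The core of the complex was read first. MTOR (ENSG00000198793, chromosome 1, 11106535 to 11262556, minus strand), the kinase, had 532 and 520 counts in OE-WT libraries and 585 and 511 in the deeper CTRL libraries, or 53.6 and 51.1 CPM against 45.5 and 41.5. Both OE-WT libraries were above both CTRL libraries. The mean was 52.4 ± 1.76 CPM against 43.5 ± 2.82 (SD, n = 2 per group). The log2 fold change came to 0.27 (standard error, SE, 0.08, 95% interval 0.10 to 0.44, edgeR adjusted p = 0.0242). This call ended with DESeq2 (adjusted p = 0.174), with scaling by library size only (0.176, log2 fold change 0.17) and with every gene of at least 1 count kept (0.0919). It also ended without OE-WT replicate 1 (adjusted p = 0.121) and without CTRL replicate 2 (0.174), while the log2 fold change stayed between 0.20 and 0.33 with any 1 library left out.

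RPTOR (ENSG00000141564, chromosome 17, 80544819 to 80966371, plus strand) encodes raptor, the scaffold that presents substrates to the kinase. It had 41.2 and 41.8 CPM in OE-WT libraries and 42.8 and 35.7 in CTRL libraries. The OE-WT values fell between the CTRL values, and the log2 fold change of 0.08 (SE 0.09, interval -0.12 to 0.27) did not pass the test (edgeR adjusted p = 0.594). MLST8 (ENSG00000167965, chromosome 16, 2204248 to 2209453, plus strand) encodes a subunit that mTORC1 shares with mTORC2, the second mTOR complex. Its levels were 34.0 and 35.4 CPM against 32.6 and 32.8. The groups did not overlap, yet the difference was small, with a log2 fold change of 0.09 (SE 0.09, interval -0.10 to 0.27, edgeR adjusted p = 0.548). Scaled by library size only, RPTOR and MLST8 changed sign, to -0.01 each.

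Of the inhibitors in the complex, AKT1S1 (ENSG00000204673, chromosome 19, 49869033 to 49878459, minus strand) encodes PRAS40, which blocks substrate binding until AKT phosphorylates it. It had 841 and 784 counts in OE-WT libraries and 832 and 780 in CTRL libraries, or 84.7 and 77.1 CPM against 64.7 and 63.3. Both OE-WT libraries were above both CTRL libraries by more than the spread within either group. The mean was 80.9 ± 5.43 CPM against 64.0 ± 0.959 (SD, n = 2 each). The log2 fold change was 0.34 (SE 0.07, 95% interval 0.18 to 0.49, edgeR adjusted p = 0.0024). AKT1S1 passed the threshold under all 8 other settings tried, with an adjusted p between 4.9e-05 and 0.0311, and in each of the 4 fits with 1 library left out. The gene with the highest share of GAC and GAG codons was thus also the one of the 10 with the smallest adjusted p, which is 1 gene and no test of a relation.

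DEPTOR (ENSG00000155792) encodes the other inhibitor, which binds the kinase itself. It was close to the limit of the depth, with 8 and 6 counts in OE-WT libraries and 13 and 14 in CTRL libraries, or 0.806 and 0.590 CPM against 1.01 and 1.14. Both OE-WT libraries were below both CTRL libraries, but the interval of its log2 fold change (-0.61, SE 0.46) ran from -1.58 to 0.35, with edgeR adjusted p = 0.378. As a fold the interval reached from 0.335 to 1.27, so no difference was detectable at this depth. Only 1.65% of the genes tested had a lower mean CPM.

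The TSC complex and RHEB sit upstream. TSC1 (ENSG00000165699, chromosome 9, 132891348 to 132946874, minus strand) encodes hamartin, which stabilises the complex. It had 8.46 and 6.78 CPM in OE-WT libraries and 6.37 and 7.87 in CTRL libraries, with the groups interleaved. Its log2 fold change was 0.10 (SE 0.19, edgeR adjusted p = 0.759) and its sign turned to -0.06 without OE-WT replicate 1 and to -0.05 without CTRL replicate 1. TSC2 (ENSG00000103197, chromosome 16, 2047967 to 2089491, plus strand) encodes tuberin, the GTPase-activating protein for RHEB. Its levels were 35.3 and 35.0 CPM against 35.4 and 33.3, and the OE-WT values lay inside the CTRL range. The log2 fold change was 0.03 (SE 0.09, interval -0.15 to 0.22, edgeR adjusted p = 0.837), and it was -0.06 with library size only. RHEB (ENSG00000106615, chromosome 7, 151466012 to 151520120, minus strand), the direct activator of the kinase, had 109.7 and 110.0 CPM against 104.3 and 102.3. Its groups did not overlap and its SE was the smallest of the 10 genes, at a log2 fold change of 0.09 (SE 0.07, interval -0.05 to 0.23, edgeR adjusted p = 0.378). With library size only it was -0.003.

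The S6 kinases phosphorylate ribosomal protein S6 and other translation factors. RPS6KB1 (ENSG00000108443, chromosome 17, 59893046 to 59950574, plus strand) had 37 and 45 counts in OE-WT libraries and 37 and 38 in CTRL libraries, or 3.73 and 4.42 CPM against 2.88 and 3.09. Both OE-WT libraries were above both CTRL libraries. Its log2 fold change of 0.45 was the highest of the 10 genes, but with a SE of 0.25 and an interval from -0.06 to 0.96 it did not pass the test (edgeR adjusted p = 0.203). RPS6KB2 (ENSG00000175634, chromosome 11, 67428460 to 67435401, plus strand) had 30.2 and 29.2 CPM against 27.0 and 25.2. The groups did not overlap, and its log2 fold change was 0.19 (SE 0.10, interval -0.02 to 0.39, edgeR adjusted p = 0.188).

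**Figure D2:**
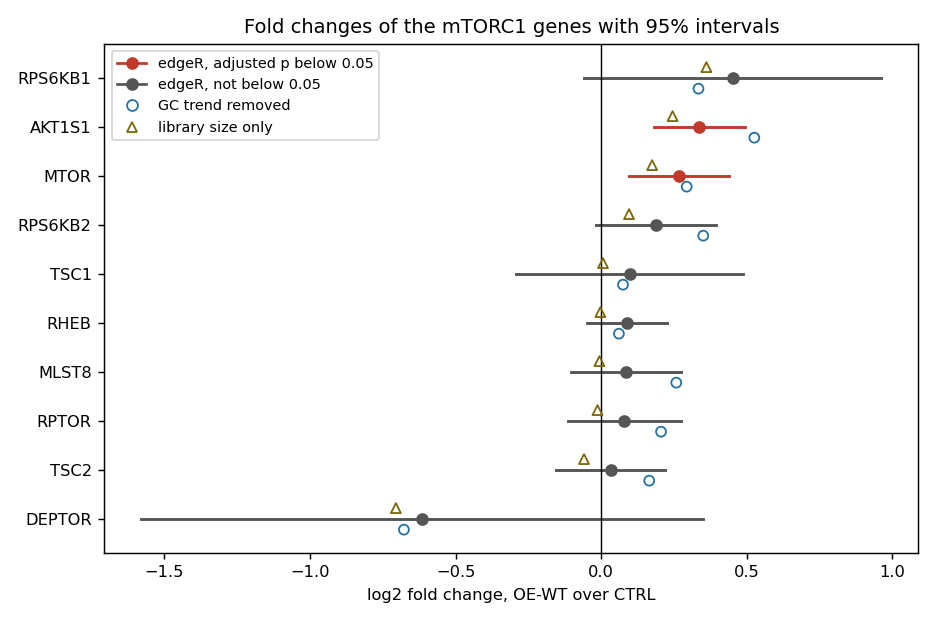
Log2 fold change, OE-WT over CTRL (horizontal axis), for each mTORC1 gene (rows). Filled points with bars are the edgeR values with 95% intervals, red where the adjusted p is below 0.05. Open circles are values after a GC trend was removed from each library, and triangles are values scaled by library size only. The bars of MTOR and AKT1S1 do not reach 0, and that of DEPTOR runs from -1.58 to 0.35.

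Levels of different genes were compared per kilobase of the canonical transcript, as TPM. From high to low the order of the mean level in CTRL cells was RHEB, AKT1S1, MLST8, RPS6KB2, RPTOR, TSC2, MTOR, TSC1, RPS6KB1 and DEPTOR. In OE-WT cells MTOR, at a mean of 8.002 TPM, was above TSC2, at 7.303, and the order was otherwise the same. RHEB had 69.5 to 76.1 TPM over the 4 libraries, AKT1S1 51.6 to 61.8, MLST8 26.3 to 29.1 and RPS6KB2 21.0 to 23.2. The transcript of AKT1S1 was therefore several times as abundant, per kilobase, as that of MTOR, which had 6.89 to 8.04 TPM. RPTOR had 7.56 to 9.33 TPM and TSC2 7.12 to 8.23. The ranges of RPTOR and TSC2 overlapped, although RPTOR was higher in each of the 4 libraries. TSC2 was above MTOR in only 2 of 4, so TSC2 and MTOR had no constant order. TSC1 had 1.08 to 1.33 TPM and RPS6KB1 0.791 to 1.12, again with overlapping ranges. DEPTOR, at 0.315 to 0.640 TPM, was the lowest in every library. The other neighbours in the CTRL order kept their order in all 4 libraries with ranges that did not overlap. MTOR and RPTOR, neighbours in the OE-WT order, did not, since MTOR was above RPTOR in OE-WT replicate 1 (7.959 against 7.804 TPM).

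**Figure D3:**
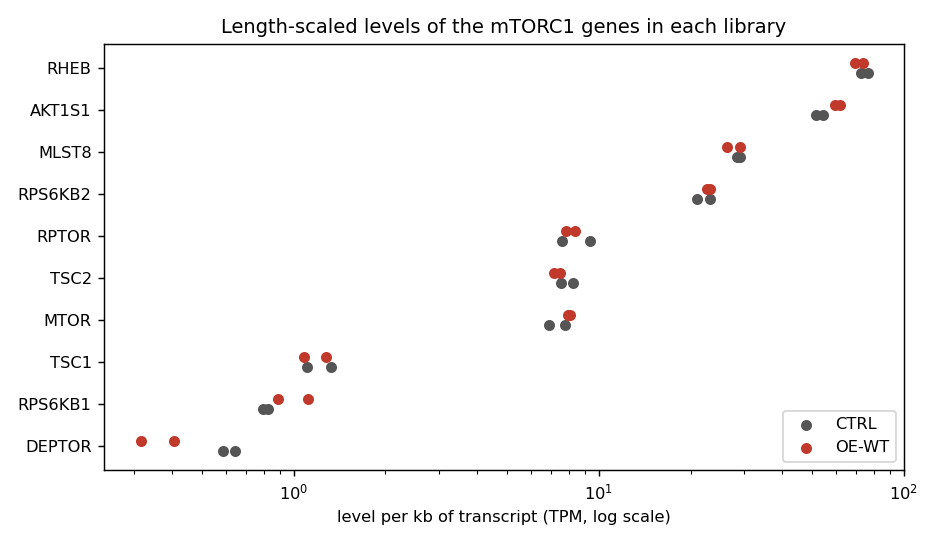
Level of each mTORC1 gene in TPM (horizontal log axis, counts per kilobase of the canonical transcript, scaled to the same sum in each library) in each of the 4 libraries, grey for CTRL and red for OE-WT, with genes ordered by their mean level in CTRL cells. RHEB lies at 69.5 to 76.1 TPM and DEPTOR at 0.315 to 0.640, and the points of RPTOR, TSC2 and MTOR lie close together.

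A ratio of 2 genes within a library does not depend on how the library is scaled. In all, 5 ratios of counts per kilobase were computed, and an exact two-sided permutation test of 2 against 2 libraries cannot give a p below 0.333. RPS6KB1 per RPS6KB2 was 0.0394 and 0.0484 in OE-WT libraries and 0.0340 and 0.0391 in CTRL libraries. RPS6KB2 thus had more counts per kilobase of the canonical transcript in each library. RPS6KB1 rested on 37 to 45 counts, and which transcript forms the cells made was not tested. OE-WT values of this ratio were above CTRL values, at a log2 difference of 0.26 and the smallest p the test allows. With each library left out in turn this difference ran from 0.11 (without OE-WT replicate 2) to 0.41 (without OE-WT replicate 1), and it was 0.16 without CTRL replicate 1. RHEB per TSC2 was 9.76 and 9.86 in OE-WT libraries and 9.25 and 9.64 in CTRL libraries, a log2 difference of 0.05 at that same smallest p. The ratios were not corrected for GC content. After a GC trend, described further on, was removed, the log2 fold changes were 0.33 for RPS6KB1 and 0.35 for RPS6KB2. In that fit they were 0.06 for RHEB and 0.16 for TSC2. In neither pair was the estimate of the first gene above that of its partner, but a ratio corrected for GC content was not tested. For MTOR per AKT1S1 the values were 0.129 and 0.135 against 0.143 and 0.133, and for TSC1 per TSC2 they were 0.179 and 0.145 against 0.135 and 0.177. Both sets overlapped between groups, with log2 differences of -0.07 and 0.06 (exact permutation p = 0.667 for each). RPTOR per RICTOR, the scaffold of mTORC1 over that of mTORC2, was 43.9 and 23.7 in OE-WT libraries and 45.1 and 43.8 in CTRL libraries (log2 difference -0.46, exact permutation p = 0.667). The low value came from OE-WT replicate 2, without which the difference was -0.02, against -0.91 without OE-WT replicate 1, and RICTOR rested on 14 to 25 counts in 3 libraries and 13 in the other.

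Transcript GC content moved with the fold changes over the whole table. The median log2 fold change fell from 0.14 in the decile of genes with the lowest GC content to -0.19 in the decile with the highest. AKT1S1, at 64.1% GC, was in the highest decile, as were MLST8 at 63.0% and RPS6KB2 at 62.3%. RPTOR (60.05%) and TSC2 (60.4%) were in the decile below it, where the median was -0.11. RPS6KB1, at 37.2%, was in the lowest decile. MTOR, at 52.3%, was in a decile with a median of -0.01. After a smooth GC trend was removed from each library, the log2 fold change was 0.53 for AKT1S1 (edgeR adjusted p = 4.9e-05) and 0.29 for MTOR (0.0123), so both were at least as large without the trend. In the same fit MLST8 (0.26, adjusted p = 0.0428) and RPS6KB2 (0.35, adjusted p = 0.0126) also passed the threshold, and RPS6KB1 came to 0.33. That made 4 of the 10 genes higher in place of 2, beside 1390 higher among the 14133 genes tested in that fit.

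The exons of several genes overlap other genes, and the strand setting of the counting is not given in the sources used here. AKT1S1 shares 151 exonic bases, 2.63% of its total, with TBC1D17 on the opposite strand, which was lower (log2 fold change -0.43, edgeR adjusted p = 0.0122), unlike AKT1S1. TSC2 shares 784 bases, 3.82% of its exonic bases, with PKD1 on the opposite strand, which was lower (-0.59, adjusted p = 8.0e-06). MTOR overlaps the antisense gene MTOR-AS1, which had 13 and 13 counts against 10 and 7. RPS6KB2 overlaps RPS6KB2-AS1, with 75 and 74 counts against 66 and 100, and MLST8 overlaps BRICD5, with 25 and 37 against 44 and 50. The part of these overlaps in the values was not tested.

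The pattern of MTOR over the 4 libraries was common in the table. Of 7847 genes with a mean of at least 10 CPM, 1441 lay within 0.1 of it, as the root mean square difference of log2 CPM centred on each gene's own mean. The nearest were RALGAPB (0.0042), which encodes a subunit of the GTPase-activating complex for Ral, HADH (0.0070), an enzyme of fatty acid oxidation, and RFC5 (0.0123), a subunit of the clamp loader of DNA replication.

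The wider pathway was read from 86 further genes in 7 lists by role, of which 76 passed the filter. Of these, 6 were higher (SEH1L, ITFG2, CAB39, TTI1, EIF4EBP2 and LARP1), 8 were lower (SLC38A9, FLCN, DDIT4, IGF1R, IRS1, PIK3CD, SGK1 and ULK1) and 62 did not pass the test. Both counts are close to the shares over all genes, 9.44% and 11.6%, and the median log2 fold change was -0.004. The thresholds of the study were passed by 0 of the 76 with edgeR, where 9 higher and 13 lower had an unadjusted p below 0.05, and by 0 with DESeq2. With library size only, 2 were higher and 14 lower, and with DESeq2 2 were higher and 5 lower.

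The amino acid branch works at the lysosome. Of 13 genes for the Rag GTPases, the Ragulator that anchors them and their partners, 0 were higher with edgeR (0 at an unadjusted p below 0.05, 0 with DESeq2) and 2 were lower (median -0.08). SLC38A9, the lysosomal transporter that senses arginine, had 21.96 and 23.88 CPM in OE-WT libraries and 31.17 and 29.39 in CTRL libraries (log2 fold change -0.40, edgeR adjusted p = 0.0070). FLCN, folliculin, which activates RagC and RagD, had 15.0 and 12.2 CPM against 18.7 and 17.0 (-0.39, adjusted p = 0.0466). Both genes were lower in both OE-WT libraries, but FLCN lost its call in 4 of 8 other settings, the GC trend and DESeq2 among them, and SLC38A9 with DESeq2. The call of FLCN also ended without OE-WT replicate 2 (adjusted p = 0.286, log2 fold change -0.26) and without CTRL replicate 1 (0.241), and that of SLC38A9 without OE-WT replicate 1 (0.0657). Of 12 genes for GATOR1, which switches the Rag GTPases off, GATOR2, which opposes it, and the KICSTOR scaffold, 2 were higher and 0 lower with edgeR (1 lower at an unadjusted p below 0.05, 0 with DESeq2, median 0.04). SEH1L, a GATOR2 subunit that also serves the nuclear pore, had 53.3 and 44.8 CPM against 37.6 and 43.7 (0.27, adjusted p = 0.0478), and it lost its call in 5 of 8 settings, without OE-WT replicate 1 (adjusted p = 0.430, log2 fold change 0.15) and without CTRL replicate 1 (0.350, log2 fold change 0.17). ITFG2 of KICSTOR had 61.1 and 61.8 CPM against 47.3 and 51.1 (0.32, adjusted p = 0.0053), and it lost its call with library size only (adjusted p = 0.0560), with DESeq2 (0.0609) and without CTRL replicate 1 (0.0690). Most of the amino acid sensors listed report leucine, arginine or S-adenosylmethionine to the GATOR complexes. Of the 6 tested, 0 passed with edgeR, 0 had an unadjusted p below 0.05 and 0 passed with DESeq2 (median 0.10).

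Energy and stress signals reach mTORC1 through AMPK and the TSC complex. Of 10 such genes tested, CAB39, a cofactor of the kinase LKB1 upstream of AMPK, had 30.2 and 28.1 CPM in OE-WT libraries and 18.8 and 22.8 in CTRL libraries (log2 fold change 0.49, edgeR adjusted p = 0.0033). It kept its call in the 8 other settings and lost it without CTRL replicate 1 (0.35, adjusted p = 0.0564). DDIT4, also called REDD1, a stress-induced inhibitor of mTORC1, had 51.9 and 60.4 CPM against 73.0 and 65.2 (-0.30, adjusted p = 0.0146), and it lost its call after the GC trend was removed, with DESeq2, without OE-WT replicate 1 (-0.19, adjusted p = 0.205) and without CTRL replicate 1 (-0.22, adjusted p = 0.147). The other 8 did not pass (median of the 10, -0.06).

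The growth factor branch starts at receptors in the cell membrane and reaches the TSC complex through AKT. Of 12 genes tested, 0 were higher with edgeR (1 at an unadjusted p below 0.05, 0 with DESeq2) and 3 were lower (median -0.02), and these 3 kept their calls in all 8 other settings and with any 1 library left out. IGF1R, the receptor of insulin-like growth factors, had 15.2 and 15.3 CPM in OE-WT libraries and 23.32 and 28.01 in CTRL libraries (log2 fold change -0.75, SE 0.12, edgeR adjusted p = 1.5e-04). IRS1, the adaptor below the insulin and IGF receptors, had 80.7 and 74.5 CPM against 100.7 and 95.4 (-0.34, SE 0.07, adjusted p = 0.0019). PIK3CD, a catalytic subunit of PI3-kinase best known from leukocytes, rested on 49 and 42 counts against 104 and 116, or 4.94 and 4.13 CPM against 8.08 and 9.42 (-0.95, SE 0.19, adjusted p = 0.0014). For each of these, both OE-WT libraries were below both CTRL libraries.

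Of 8 genes for mTORC2 and for the factors that fold mTOR, 1 was higher and 1 lower (median 0.12). TTI1, which helps assemble mTOR and related kinases, had 25.4 and 26.6 CPM in OE-WT libraries and 21.1 and 20.5 in CTRL libraries (log2 fold change 0.32, edgeR adjusted p = 0.0347). That call was lost in 4 of 8 settings and in each of the 4 fits with 1 library left out (adjusted p from 0.0612 to 0.166). SGK1, a kinase that mTORC2 activates, had 17.43 and 16.02 CPM against 23.5 and 25.7 (-0.56, adjusted p = 0.0015).

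The list of substrates of mTORC1 and of the S6 kinases also held EIF4E, which is not itself one. Of its 15 genes tested, 2 were higher and 1 lower (median -0.003). EIF4EBP2, which represses translation until mTORC1 phosphorylates it, had 172.9 and 175.5 CPM in OE-WT libraries and 120.8 and 114.6 in CTRL libraries (log2 fold change 0.57, SE 0.07, edgeR adjusted p = 2.8e-06). ULK1, the kinase that starts autophagy and that mTORC1 inhibits, had 19.2 and 18.8 CPM against 34.0 and 31.2 (-0.78, SE 0.10, adjusted p = 1.6e-05). Both kept their calls in all 8 other settings and with any 1 library left out. LARP1, which binds mRNAs of the translation machinery, had 172.3 and 165.1 CPM against 147.8 and 146.8 (0.20, adjusted p = 0.0356), and that call was lost in 4 of 8 settings and in 3 of the 4 fits with 1 library left out, those without OE-WT replicate 1 and without either CTRL library (adjusted p from 0.115 to 0.179).

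**Figure D4:**
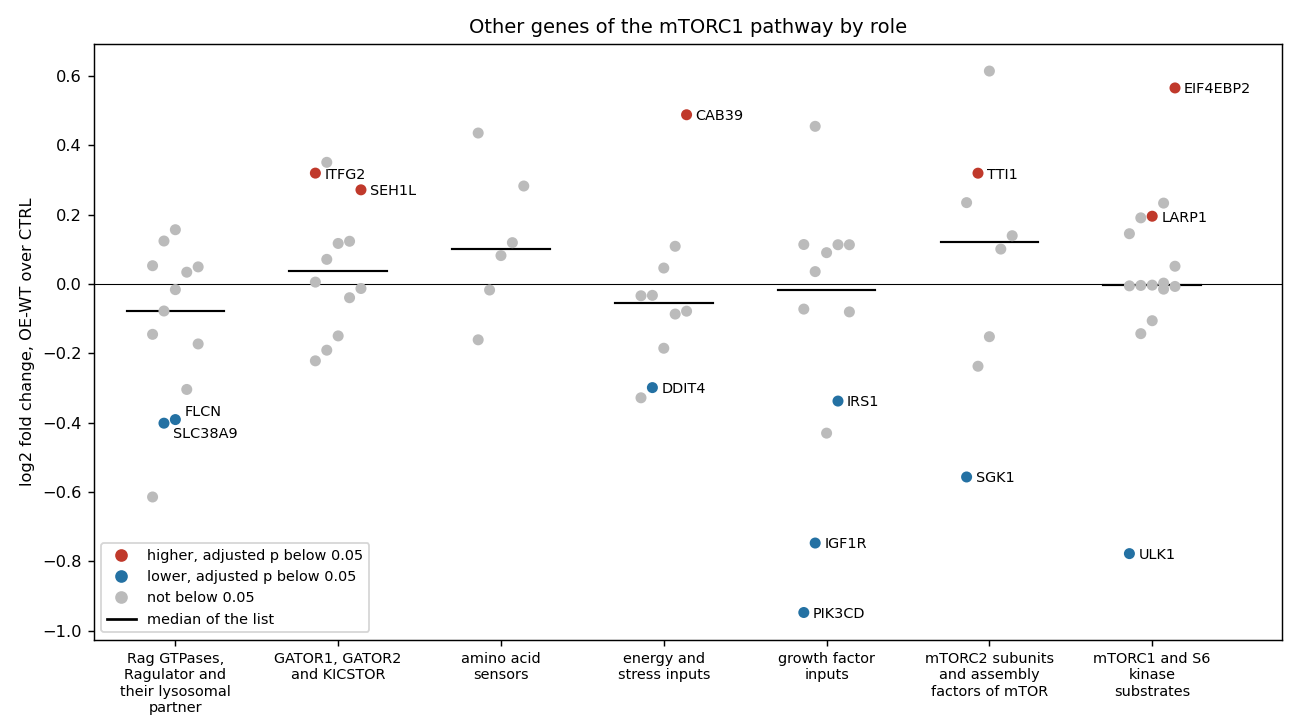
Log2 fold change, OE-WT over CTRL (vertical axis), of the 76 other pathway genes tested, in 7 lists by role (horizontal axis). Each point is a gene, red where higher and blue where lower at an adjusted p below 0.05, and the bars are list medians, which lie between -0.08 and 0.12. PIK3CD, ULK1 and IGF1R are the lowest of the genes with a call, and EIF4EBP2 the highest.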

How the data were processed

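RNA sequencing of 4 DLD1 libraries, 2 OE-WT and 2 CTRL, was analysed. The labels list 8 samples, 2 lanes per library, and the table holds 1 column per library, so each library was 1 replicate. The authors trimmed the reads, aligned them to GRCh38 and deposited raw counts per gene. The paper names Cutadapt, HISAT2 and HTSeq with removal of ribosomal RNA and 3 biological replicates per group, whereas the submitters' processing notes name HISAT2 2.2.1, featureCounts 2.0.0 and DESeq2 1.34.0 and the labels describe poly(A) selection. Annotation release and strand setting are not given in the sources used here. The values are whole numbers that sum to 10327498 to 12379671 per library.

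Symbols and coordinates came from GENCODE release 44, which matched 57532 identifiers. Counts were filtered by group (minimum count 10), normalized by TMM and tested with edgeR 4.0.16 in R 4.3.3 (quasi-likelihood test, group as the only term), with Benjamini-Hochberg adjustment over 14133 genes. Standard errors are the log2 fold change over the square root of F, and intervals are 95%. The libraries of a group differed beyond counting noise (chi-square per degree of freedom 4.53 and 4.09). Other settings tried were DESeq2 1.42.0, the likelihood ratio test of edgeR, scaling by RLE factors or by library size alone, a lower filter (every gene with at least 1 count), a stricter one (10 or more counts in each of the libraries), a block on replicate number, a GC trend (lowess, span 0.3) removed per library, and each library left out in turn. The last of these was tested with edgeR by a choice made after the data were seen, with the lone library of a group taken to vary like the other group. Ratios were taken of counts per kilobase as they stand, and with 0.5 counts added as an alternative. The scripts were tested on simulated data, and figures were drawn in Python 3.11.15 with matplotlib 3.10.9.

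All 10 genes were named, with TRMT6, TRMT61A, ARG2, up to 3 genes per pathway list by smallest adjusted p below 0.05, and the 3 genes nearest to MTOR. The genes and the lists were chosen with earlier results of these data known. SAMTOR was matched by its synonym BMT2. Ribosome profiling and tRNA sequencing were not analysed here. A few items are not reported here.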

Additional observations from a re-analysis of the deposited data

How the results depend on the processing

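After the GC trend was removed, 1390 of the 14133 genes tested were called higher, 4 of the 10 mTORC1 genes among them. Of the 2 mTORC1 genes called higher without this removal, 1 stayed called with library size only, with DESeq2 and with every gene of at least 1 count kept. With 1 library left out the count was 1 to 2. The other pathway genes called higher, 6 in all, numbered 2 with library size only, 2 with DESeq2, 3 with every gene of at least 1 count kept and 1 to 5 with 1 library left out, and the 8 called lower numbered 14 with library size only and 5 with DESeq2. Over all genes the 2976 calls became 1377 with DESeq2 and 1903 to 2852 with 1 library left out, the lowest without CTRL replicate 1. Scaling by library size only moved the median log2 fold change by -0.09 and the share of higher among all calls from 44.8% (1334 higher, 1642 lower) to 23.0% (733 higher, 2451 lower), and with it RPTOR came to -0.0128, MLST8 to -0.0061, TSC2 to -0.0591 and RHEB to -0.0030, none of them called. With each library left out in turn RPTOR ran from -0.0419 to 0.2151 and TSC2 from -0.0086 to 0.0768, both lowest without CTRL replicate 2, and TSC1 from -0.0638 (without OE-WT replicate 1) to 0.2576, at -0.0490 without CTRL replicate 1. With 1 library left out the log2 difference of the ratio of TSC1 to TSC2 ran from -0.13 to 0.26, at -0.09 without OE-WT replicate 1. The causes were not tested. RLE size factors, the likelihood ratio test and the filter of at least 10 counts in every library changed no call among the 10 genes. At the filter of 10 counts in every library DEPTOR was not tested, and DESeq2 gave it no adjusted p.

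Same-numbered libraries did not deviate together (correlation across genes -0.07), so the numbers were not read as pairs. With a replicate block, 2 of the 10 genes were higher (MTOR at adjusted p = 0.0466, edgeR's quasi-likelihood test), as were 4 of the other pathway genes, with 7 lower, and 1145 genes were higher and 1513 lower over all genes. Depth limited DEPTOR (6 to 14 counts), RPS6KB1 (37 to 45) and RICTOR (13 to 25).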

Other observations

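Of the 86 other pathway genes, 10 were too low to be tested, and several of these have a close relative with many counts. Overlap of their exons with other genes was not examined, so their low counts are not read as absence of expression. The genes named here were chosen after their values were seen. EIF4EBP3 had 0 counts in every library, while EIF4EBP1 had 113.6 to 140.7 TPM and EIF4EBP2 22.1 to 32.2 TPM. EIF4EBP1 was the higher of these per kilobase in every library, and its log2 fold change was -0.003 (SE 0.07, edgeR adjusted p = 0.980). RPS6, the ribosomal protein that the S6 kinases phosphorylate, had 1152 to 1199 CPM over the 4 libraries and a log2 fold change of -0.01 (SE 0.07, adjusted p = 0.966). PRKAA2, a catalytic subunit gene of AMPK, had 0 to 2 counts by library, against 118 to 163 for PRKAA1. INSR, the insulin receptor, lay just outside the threshold with 9.97 and 8.06 CPM in OE-WT libraries and 13.21 and 11.04 in CTRL libraries (log2 fold change -0.43, SE 0.16, adjusted p = 0.0674), with an adjusted p from 0.0144 (library size only) to 0.281 (DESeq2) over the 8 other settings.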
